A study of Rattus norvegicus with 11 samples.

Results

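Hematoma aspiration was compared with untreated severe hemorrhage in the ipsilateral striatum of the rat at day 3. The comparison took in all 3 rats labelled IS-HA and all 3 rats labelled IS, 6 of the 11 rats of the series, and every gene of the deposited counts in both directions. All animals were adult male Sprague-Dawley rats. IS rats received 0.6 U of type VII-S collagenase in 3.0 μL into the striatum and no aspiration. IS-HA rats received the same collagenase and had the hematoma drawn out 6 h later, about 150 μL of it, before they were killed at day 3. The other 5 rats were 3 IC rats with 0.2 U in 1.0 μL and 2 Normal rats with neither injection nor aspiration. They entered the fit for the estimate of spread, and their levels are given here for some genes and lists only. No group had a sham aspiration, so the effects of the clot removal and of the aspiration procedure itself cannot be told apart. Each library was one rat, and a rat is named by its replicate number in the labels, which is 2, 3 and 4 in IS and 1, 2 and 3 in IS-HA.

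Collagenase digests the basement membrane of small vessels, and blood then collects in the tissue. Red cells in a clot break down over days, and the released hemoglobin and heme are toxic to neurons. Macrophages and microglia take up hemoglobin bound to haptoglobin and heme bound to hemopexin, heme oxygenase 1 splits heme into biliverdin, carbon monoxide and iron, and ferritin stores the iron. Neutrophils enter early and monocyte-derived macrophages follow. Scar matrix is laid down by fibroblasts, pericytes and reactive astrocytes around the lesion. Removing clot early takes away part of the heme load and of the pressure on surrounding tissue, which is the question the aspirated group addresses.

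The antioxidant response element, the site of Nrf2, is the sequence by which heme and oxidants are known to raise many of the genes described below. The core TGACNNNGC was searched on both strands in windows of 300 bases, from 250 before to 50 after the start of a gene, in RefSeq promoters of the GRCr8 assembly. It was found in 3342 of 27457 promoters (12.17%), in 3 of the 7 heme clearance genes with a promoter, in 0 of 9 iron genes and in 2 of 15 Nrf2 targets. The 3 heme clearance genes were Blvra, Hmox2 and Hpx. Hmox1 and Fth1 had no promoter in the set and were not searched. Sites farther upstream lie outside these windows, so a gene without a match may still hold the element. The promoters of Gclm, a subunit of glutathione synthesis, at chr2:213031885-213032184 (plus strand), of Prdx1, a peroxidase, at chr5:135383656-135383955 (plus strand), and of Hpx, which encodes hemopexin, at chr1:169352106-169352405 (minus strand), are shown because they hold the core, which stands in capitals. That of Foxn3, at chr6:124571991-124572290 (minus strand), is shown because Foxn3 was the one gene called by edgeR, and this promoter holds no match.
Gclm: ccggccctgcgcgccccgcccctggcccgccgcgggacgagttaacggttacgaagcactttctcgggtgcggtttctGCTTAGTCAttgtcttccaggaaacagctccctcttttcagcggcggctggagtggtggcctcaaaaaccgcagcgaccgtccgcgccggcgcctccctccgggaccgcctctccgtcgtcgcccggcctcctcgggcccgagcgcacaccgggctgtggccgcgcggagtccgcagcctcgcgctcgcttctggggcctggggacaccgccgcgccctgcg
Prdx1: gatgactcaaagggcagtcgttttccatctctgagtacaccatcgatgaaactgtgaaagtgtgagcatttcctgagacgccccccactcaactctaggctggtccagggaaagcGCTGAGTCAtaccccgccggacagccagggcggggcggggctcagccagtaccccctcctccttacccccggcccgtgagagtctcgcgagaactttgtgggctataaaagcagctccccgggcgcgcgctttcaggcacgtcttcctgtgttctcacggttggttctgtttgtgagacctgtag
Hpx: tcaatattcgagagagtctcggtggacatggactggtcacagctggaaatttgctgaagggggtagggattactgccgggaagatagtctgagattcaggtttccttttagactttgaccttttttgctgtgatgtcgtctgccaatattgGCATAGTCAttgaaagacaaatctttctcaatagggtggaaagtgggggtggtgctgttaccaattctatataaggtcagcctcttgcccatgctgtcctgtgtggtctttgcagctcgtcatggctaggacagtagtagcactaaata
Foxn3: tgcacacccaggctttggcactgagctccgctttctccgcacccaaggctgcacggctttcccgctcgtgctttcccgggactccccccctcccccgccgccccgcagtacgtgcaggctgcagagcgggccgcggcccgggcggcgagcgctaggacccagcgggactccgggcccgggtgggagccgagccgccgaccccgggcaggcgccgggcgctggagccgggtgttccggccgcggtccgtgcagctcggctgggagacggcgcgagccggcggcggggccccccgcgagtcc
A match is a description of the letters and not of binding. The counts of the file were made on mRatBN7.2, and these positions are of GRCr8 alone.

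The 3 IS libraries held 7448205 to 10958581 counts assigned to genes and the IS-HA libraries 6701301 to 15083520. IS-HA replicate 2 had the smallest library and stood apart from its group. The log2 CPM of the 15742 tested genes differed between replicates 1 and 3 with an SD of 0.440, against 1.04 between replicates 1 and 2 and 0.989 between replicates 2 and 3. The 3 pairs of IS rats gave 0.530 to 0.765. Genes for ribosomal proteins took 5.12% of the counts of IS-HA replicate 2, 2.04% and 2.19% of those of replicates 1 and 3, and 2.87% to 3.84% in the IS rats. IS replicate 4 also lay away from IS replicates 2 and 3 in many gene groups, with more macrophage and less neuronal RNA. Each result is therefore given rat by rat, with the value without IS-HA replicate 2 where that moves it. Levels are given as CPM, the counts scaled to a common library size with the TMM factors of edgeR, which make most genes equal on average. CPM do not correct for gene length, so they are compared between rats and not between genes. Markers of the labelled tissue were present in every rat. Ppp1r1b, which encodes DARPP-32 of striatal medium spiny neurons, stood at 616, 1239 and 539.5 CPM in the IS rats and 933, 728 and 408 CPM in the IS-HA rats, and those groups overlapped.

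With edgeR's quasi-likelihood test, an adjusted p under 0.05 and a log2 fold change of at least 0.5 either way, 0 of 15742 genes were called lower in IS-HA (0.0%) and 1 gene higher (0.00635%). At an unadjusted p under 0.05, 420 genes were lower (2.67%) and 792 higher (5.03%). The Wald test of DESeq2 called 21 lower (0.122%) and 47 higher (0.273%) of the 17193 genes it gave an adjusted p. Of these, all 21 lower genes and at least 43 of the 47 higher genes had no overlap between the rats of the groups. Overlap was looked for only among the 15742 genes of the edgeR test. Every IS-HA rat was below every IS rat for 854 genes (5.42%) and above every IS rat for 781 genes (4.96%). The median log2 fold change of all tested genes was 0.05, with 6964 of 15742 negative and 8778 positive. Gene groups are described beside these background shares, by how many members had no overlap and by their median. The lists and their members were chosen with earlier results of these data known, so these counts are a description and not a test. A member with no call is given by its values only.

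The gene called in edgeR's test was Foxn3 (ENSRNOG00000004709), whose product is a forkhead protein known mainly as a repressor of transcription. It stood at 7.43, 5.66 and 5.09 CPM in the IS rats and 23.5, 19.4 and 23.6 CPM in the IS-HA rats. All 3 aspirated rats lay within a narrow band and above every IS rat, and IS-HA replicate 2 was no exception. Foxn3 rose by a log2 fold change of 1.86 (SE 0.21, adjusted p = 0.0488). The IC mean was 18.6 CPM and the Normal mean 44.3 CPM. The call rests on a margin: it was lost when any one of IS replicates 3 and 4, IS-HA replicates 1 and 3, or any IC or Normal rat was left out, with adjusted p from 0.0752 to 0.596 in those 9 fits and log2 fold changes from 1.76 to 1.86. Of the 25 tested forkhead genes, Foxn3 was the one with every aspirated rat higher, and 2 others, Foxd3 and Foxf2, had every aspirated rat lower. These counts are near the shares of all tested genes, 4.96% higher and 5.42% lower. The median log2 fold change of the forkhead genes was -0.03, so the family as a whole was not shifted. Foxd3 stood at 3.76, 3.42 and 3.85 CPM in the IS rats and 1.02, 1.58 and 2.24 CPM in the IS-HA rats, and Foxf2, a gene of brain pericytes, at 6.73, 4.76 and 6.2 CPM in the IS rats and 3.58, 3.94 and 3.91 CPM in the IS-HA rats. Their log2 fold changes were -1.20 (SE 0.45, adjusted p = 0.543) and -0.63 (SE 0.25, adjusted p = 0.543).

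Of the 8 genes lower in IS-HA with the smallest p and no overlap 7 are given here. They were Nos2, Cxcl2, Cxcr2, Cldn4, Thbd, Ggt5 and Akr1b8. None of the 7 passed the adjusted threshold in edgeR's test, whose values follow. All 7 passed it in DESeq2's Wald test, with adjusted p from 8.98e-05 for Nos2 to 0.0264 for Cxcr2. Nos2, the inducible nitric oxide synthase, stood at 4.2, 15.9 and 13.1 CPM in the IS rats and 0.639, 1.89 and 0.652 CPM in the IS-HA rats. Its 3 aspirated rats were all under 2 CPM, and the log2 fold change was -3.50 (SE 0.61, adjusted p = 0.292). Cxcl2, a neutrophil-attracting chemokine, stood at 8.39, 28.3 and 20.8 CPM in the IS rats and 0.831, 2.21 and 0.931 CPM in the IS-HA rats, with -3.95 (SE 0.85, adjusted p = 0.415). Cxcr2, the receptor for Cxcl2 on neutrophils, stood at 12.8, 8.18 and 10.6 CPM in the IS rats and 3.39, 4.89 and 2.7 CPM in the IS-HA rats, with -1.54 (SE 0.37, adjusted p = 0.48). Ligand and receptor were both lower in every aspirated rat, which the rule that chose these genes required of each.

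Cldn4, an epithelial tight junction claudin, stood at 4.72, 9.89 and 10.9 CPM in the IS rats and 2.11, 1.74 and 1.86 CPM in the IS-HA rats, with -2.13 (SE 0.40, adjusted p = 0.292). Thbd, the endothelial thrombin receptor thrombomodulin, stood at 44.9, 31.9 and 54.5 CPM in the IS rats and 14.6, 19.1 and 20.3 CPM in the IS-HA rats, with -1.28 (SE 0.30, adjusted p = 0.476). IS-HA replicate 2 was the lowest of the 6 rats for Cldn4 and between replicates 1 and 3 for Thbd. Ggt5, a glutamyl transferase that acts on leukotriene C4 and glutathione, stood at 12.7, 12.6 and 14.6 CPM in the IS rats and 3.71, 6.78 and 5.68 CPM in the IS-HA rats, with -1.32 (SE 0.28, adjusted p = 0.374). Akr1b8, an aldo-keto reductase, stood at 37.6, 53.9 and 33.3 CPM in the IS rats and 5.43, 21.9 and 7.36 CPM in the IS-HA rats, with -1.89 (SE 0.44, adjusted p = 0.476), and here IS-HA replicate 2 was the aspirated rat nearest to IS.

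**Figure D1:**
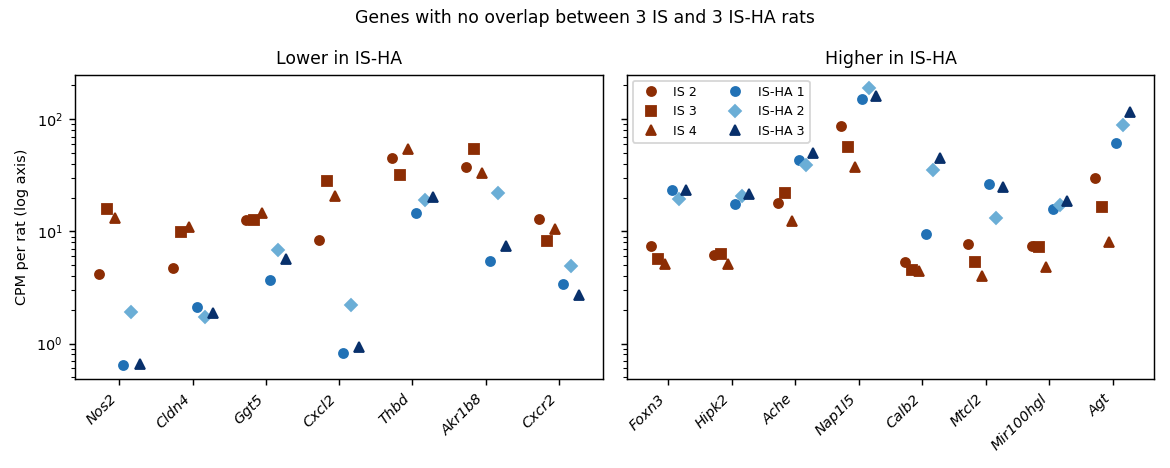
CPM on a log axis in each of the 3 IS and 3 IS-HA rats for 7 of the 8 genes lower and the 8 genes higher in IS-HA with the smallest p, no overlap, an absolute log2 fold change of at least 1 and a mean of at least 5 CPM. The rule chose genes with no overlap, and Foxn3 is the one past the adjusted threshold in edgeR's test. All genes shown were past it in DESeq2's Wald test. The IS-HA replicate 2 points (light diamonds) lie with the other aspirated rats in Foxn3, Hipk2 and Cldn4 and nearest to IS in Akr1b8.

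On the higher side, Hipk2, a kinase of stress and p53 signaling, stood at 6.21, 6.29 and 5.09 CPM in the IS rats and 17.4, 20.7 and 21.3 CPM in the IS-HA rats, with a log2 fold change of 1.75 (SE 0.27, adjusted p = 0.292). Ache, which encodes acetylcholinesterase and is abundant in the cholinergic striatum, stood at 17.8, 21.9 and 12.3 CPM in the IS rats and 43.7, 39.4 and 49.7 CPM in the IS-HA rats, with 1.35 (SE 0.22, adjusted p = 0.292). Mtcl2, a microtubule crosslinking factor, stood at 7.78, 5.3 and 3.99 CPM in the IS rats and 26.4, 13.3 and 24.8 CPM in the IS-HA rats, with 1.91 (SE 0.34, adjusted p = 0.292). Each of the 3 aspirated rats was above each IS rat in these genes, as the rule that chose them required. IS-HA replicate 2 was the lowest aspirated rat for Mtcl2 and Ache and between the others for Hipk2.

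Nap1l5, an imprinted nucleosome assembly gene, stood at 87.7, 56.9 and 37.4 CPM in the IS rats and 150.1, 188 and 163 CPM in the IS-HA rats, with 1.46 (SE 0.25, adjusted p = 0.292), and IS-HA replicate 2 was the highest of the 6 rats. Calb2, which encodes the calcium-binding protein calretinin, stood at 5.33, 4.49 and 4.41 CPM in the IS rats and 9.39, 35 and 45.4 CPM in the IS-HA rats, with 2.65 (SE 0.47, adjusted p = 0.292). Here the spread was among the aspirated rats, with replicate 1 far below replicates 2 and 3. Agt, the astrocyte gene for angiotensinogen, stood at 29.7, 16.6 and 7.99 CPM in the IS rats and 61.8, 89 and 116 CPM in the IS-HA rats, with 2.28 (SE 0.42, adjusted p = 0.292). The host transcript of a microRNA cluster, Mir100hgl, stood at 7.35, 7.19 and 4.82 CPM in the IS rats and 16, 17.4 and 18.6 CPM in the IS-HA rats, with 1.41 (SE 0.25, adjusted p = 0.292). Normal means were 37.7 CPM for Hipk2, 97.9 CPM for Ache, 33.6 CPM for Mtcl2 and 168 CPM for Nap1l5. They were 6.42 CPM for Calb2, 141 CPM for Agt and 29 CPM for Mir100hgl. Each gene listed here with its Normal mean passed the adjusted threshold in DESeq2's Wald test. The adjusted p there ran from 8.16e-05 for Hipk2 to 0.000858 for Mir100hgl.

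Genes of heme and hemoglobin clearance were lower in the aspirated rats as a group. Of 10 tested members 8 had a lower mean level, 3 had every aspirated rat below every IS rat, none had every aspirated rat higher, and the median log2 fold change was -0.72. That median rested on IS replicate 4, the highest IS rat, and was -0.10 without it. A group is also summarised in each rat by the median over its members of log2 CPM minus the IS mean. On that scale the IS rats were at -0.25, -0.14 and 0.45 and the aspirated rats at -0.79, -0.43 and -0.57, so all 3 aspirated rats lay below the IS rats and IS-HA replicate 2 was the closest to them. Hmox1, the inducible heme oxygenase, stood at 1562, 1884 and 3046 CPM in the IS rats and 582, 1049.7 and 932 CPM in the IS-HA rats and had no overlap, with a log2 fold change of -1.34 (SE 0.35, adjusted p = 0.499). Slc48a1, the transporter that carries heme out of the phagolysosome, stood at 326, 403 and 521 CPM in the IS rats and 253, 287 and 284 CPM in the IS-HA rats, with -0.60 (SE 0.19, adjusted p = 0.54). Hpx was near the floor of detection in all 6 rats, at 0.612, 0.989 and 1.1 CPM in the IS rats and 0.383, 0.473 and 0.373 CPM in the IS-HA rats. Cd163, the hemoglobin-haptoglobin receptor, stood at 27.1, 12.7 and 50.3 CPM in the IS rats and 10.1, 10.6 and 27.1 CPM in the IS-HA rats, and IS-HA replicates 1 and 2 lay below every IS rat while replicate 3 lay within the IS range. Hmox2, the constitutive heme oxygenase, stood at 69.2, 66.2 and 55.1 CPM in the IS rats and 69, 77.3 and 54.3 CPM in the IS-HA rats, with groups that overlapped.

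Iron storage did not separate the groups in all rats. Fth1, the ferritin heavy chain, stood at 8227, 9228 and 13715 CPM in the IS rats and 4497, 11607 and 4713 CPM in the IS-HA rats. IS-HA replicates 1 and 3 lay below the IS rats and replicate 2 lay inside their range, so the log2 fold change was -0.58 (SE 0.42, adjusted p = 0.659) with all rats and -1.17 (adjusted p = 0.0728) without IS-HA replicate 2. None of the 12 tested iron genes had every aspirated rat on one side, and their median log2 fold change was -0.20. The deposited counts held little red cell RNA. Of 10 listed erythroid genes 3 were tested, with a summed level of 34.8 to 57.5 CPM over the IS rats and 18.7 to 47.5 CPM over the IS-HA rats, and Hbb, the beta globin, stood at 33.8, 43.9 and 54 CPM in the IS rats and 30.2, 44.5 and 17.8 CPM in the IS-HA rats.

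Targets of Nrf2 were lower in 15 of 18 members, with a median of -0.39, and 4 of 18 had every aspirated rat below IS. The per-rat medians were -0.20, -0.12 and 0.27 in the IS rats and -0.68, -0.22 and -0.51 in the aspirated rats. Osgin1, an oxidative stress response gene, stood at 7.7, 12.5 and 12.8 CPM in the IS rats and 2.56, 6.94 and 4.56 CPM in the IS-HA rats, with -1.26 (SE 0.39, adjusted p = 0.54). Txnrd1, thioredoxin reductase, stood at 115, 106 and 123 CPM in the IS rats and 72.9, 80.3 and 98.3 CPM in the IS-HA rats, with -0.45 (SE 0.16, adjusted p = 0.54). Nqo1, the quinone reductase, split the aspirated rats, at 48.3, 63.3 and 53 CPM in the IS rats and 33.2, 63.9 and 29 CPM in the IS-HA rats. Gclm and Prdx1, whose promoters are printed above, stood at 18.5, 13.5 and 17.9 CPM in the IS rats and 17.3, 12 and 13.6 CPM in the IS-HA rats and at 243, 257 and 380.4 CPM in the IS rats and 191, 333 and 212 CPM in the IS-HA rats, and both overlapped. Slc7a11, the cystine transporter, went the other way, at 17.1, 7.64 and 5.51 CPM in the IS rats and 30.1, 7.89 and 25 CPM in the IS-HA rats.

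Alternative macrophage activation genes had a median of -0.70, with 11 of 12 members lower and 5 of 12 without overlap. All 3 aspirated rats, at -0.93, -0.41 and -0.61, lay below the IS rats, at -0.28, -0.21 and 0.52. Il4r, the receptor for interleukin 4, stood at 213, 188 and 256 CPM in the IS rats and 87.4, 143 and 105 CPM in the IS-HA rats, with -0.97 (SE 0.27, adjusted p = 0.499). Stab1, a scavenger receptor of tissue macrophages, stood at 137, 142 and 240.4 CPM in the IS rats and 74.9, 82 and 98.7 CPM in the IS-HA rats, with -1.02 (SE 0.26, adjusted p = 0.499). Arg1, arginase 1, stood at 75.8, 75.9 and 201 CPM in the IS rats and 23.1, 45.1 and 36.9 CPM in the IS-HA rats, and its IS values were led by replicate 4. F13a1, the coagulation factor subunit of resident macrophages, and Tgfb1 were the other members without overlap.

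RNA of classical inflammatory signaling genes was lower on average in nearly every member. The list holds inhibitors as well as activators, and signaling itself was not measured. Of 25 genes of NF-kB, Toll-like receptor and interleukin 1 signaling 24 had a negative log2 fold change, 10 had every aspirated rat below every IS rat, none had every aspirated rat above, and the median was -0.45. The per-rat medians were -0.17, -0.12 and 0.33 in IS and -0.83, -0.43 and -0.58 in IS-HA, which did not overlap. Il6, a cytokine, stood at 1.4, 0.989 and 2.07 CPM in the IS rats and 0.639, 0.631 and 0.652 CPM in the IS-HA rats. Osm, the related cytokine oncostatin M, stood at 8.31, 6.65 and 19.7 CPM in the IS rats and 3.2, 3.0 and 6.43 CPM in the IS-HA rats. Socs3, the feedback inhibitor of their common receptor chain, stood at 112, 121 and 164 CPM in the IS rats and 47.2, 76.2 and 70.2 CPM in the IS-HA rats, with -1.04 (SE 0.30, adjusted p = 0.507).

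In interleukin 1 signaling the antagonist, the decoy receptor and the adaptor had every aspirated rat below every IS rat, and the ligands did not. Il1b stood at 6.47, 14 and 19.5 CPM in the IS rats and 2.75, 10.4 and 3.17 CPM in the IS-HA rats and overlapped through IS-HA replicate 2. Il1rn, the receptor antagonist, stood at 27.5, 27 and 34.1 CPM in the IS rats and 9.14, 19.2 and 10.5 CPM in the IS-HA rats. Il1r2, the decoy receptor of neutrophils, stood at 6.91, 7.46 and 4.96 CPM in the IS rats and 1.21, 4.26 and 0.559 CPM in the IS-HA rats. Myd88, the adaptor of Toll-like and interleukin 1 receptors, stood at 51.3, 47.2 and 79 CPM in the IS rats and 30.7, 44.2 and 30.5 CPM in the IS-HA rats, with -0.75 (SE 0.23, adjusted p = 0.54). Tnf had 2.54, 2.97 and 3.58 CPM in the IS rats and 1.02, 2.84 and 2.98 CPM in the IS-HA rats and overlapped, and Il1a and Cd86 had log2 fold changes of -0.02 and 0.03.

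Among chemokines and their receptors the median was -0.80, 12 of 16 were lower and 5 of 16 had no overlap. Ccl2, which draws monocytes through Ccr2, stood at 72.9, 67.9 and 124 CPM in the IS rats and 22.9, 36.3 and 49.6 CPM in the IS-HA rats, with -1.28 (SE 0.43, adjusted p = 0.54). Ccl7, a further ligand of Ccr2, stood at 71.4, 61.2 and 116 CPM in the IS rats and 17.2, 55.1 and 41.2 CPM in the IS-HA rats. Ccl3 stood at 18.6, 36.7 and 40.3 CPM in the IS rats and 5.05, 16.3 and 7.26 CPM in the IS-HA rats, with -1.77 (SE 0.48, adjusted p = 0.499), and Cxcl16 at 57.3, 56.2 and 84.3 CPM in the IS rats and 39.3, 46.4 and 35.4 CPM in the IS-HA rats, with -0.71 (SE 0.19, adjusted p = 0.499). The interferon-induced Cxcl10 went against the group through one rat, at 3.76, 2.52 and 3.3 CPM in the IS rats and 1.85, 23.7 and 2.33 CPM in the IS-HA rats.

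Markers of the cells that carry these receptors did not follow in all rats. Of 6 tested neutrophil markers 2 had no overlap, Cxcr2 among them. S100a8, a granulocyte calcium-binding protein gene, stood at 53.3, 35.5 and 36.5 CPM in the IS rats and 9.97, 104 and 13.6 CPM in the IS-HA rats, so IS-HA replicate 2 was above every IS rat and replicates 1 and 3 below. The neutrophil list was at 0.12, -0.14 and -0.10 in IS and -1.80, 0.04 and -1.63 in IS-HA, with a median log2 fold change of -0.70 with all rats and -1.81 without IS-HA replicate 2. T and NK cell markers gave -0.97, 0.23 and -1.59 in the aspirated rats against 0.05, -0.31 and 0.30 in IS. The list of microglia and macrophages gave -0.78, 0.14 and -0.70 against -0.34, -0.25 and 0.55. In tissue RNA, fewer cells of a type and less RNA per cell cannot be told apart.

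**Figure D2:**
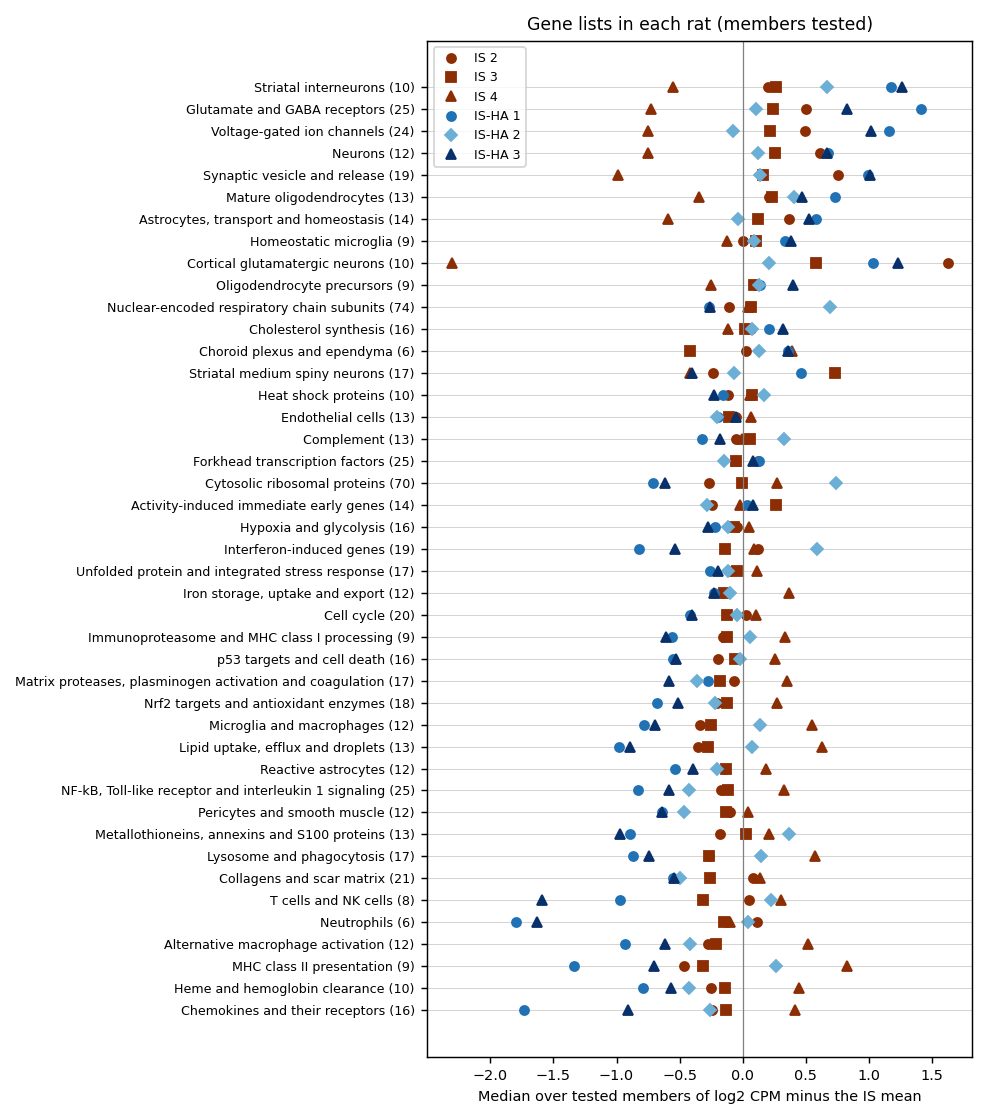
Median over the tested members of each gene list of log2 CPM minus the IS mean, in each IS rat (brown) and IS-HA rat (blue), for lists with at least 6 tested members, ordered by the median log2 fold change. IS-HA replicate 2 (light diamonds) lies with replicates 1 and 3 below IS for matrix, pericyte, heme and alternative activation genes, and far from them for ribosomal, interferon, neutrophil and respiratory chain genes.

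Scar matrix and mural cells were groups in which the 3 aspirated rats lay close together. Of 21 collagen and matrix genes 17 were lower and 10 had every aspirated rat below every IS rat, with a median of -0.57. The aspirated rats were at -0.55, -0.50 and -0.54 and the IS rats at 0.08, -0.26 and 0.14, and without IS-HA replicate 2 the median log2 fold change was -0.50. Basement membrane collagen Col4a2 stood at 183, 149 and 164 CPM in the IS rats and 112, 98.9 and 128 CPM in the IS-HA rats, with -0.55 (SE 0.20, adjusted p = 0.54). Col6a2, a microfibrillar collagen, stood at 71.3, 60.9 and 69.7 CPM in the IS rats and 40.9, 47 and 44.3 CPM in the IS-HA rats, with -0.61 (SE 0.21, adjusted p = 0.54). Loxl1, which crosslinks elastin, stood at 25.5, 24.4 and 22.7 CPM in the IS rats and 15.4, 17.5 and 12.2 CPM in the IS-HA rats, with -0.69 (SE 0.20, adjusted p = 0.507). Fn1, fibronectin, stood at 305, 243 and 569 CPM in the IS rats and 195, 211 and 207 CPM in the IS-HA rats. Col1a1, the fibrillar collagen of fibroblasts, stood at 169, 107 and 142 CPM in the IS rats and 111, 53.8 and 115 CPM in the IS-HA rats, and those groups overlapped. Lox and Sparc had log2 fold changes of 0.59 and 0.25.

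Pericyte and smooth muscle markers had a median of -0.47, with 10 of 12 lower and 3 of 12 without overlap. Pdgfrb, the platelet-derived growth factor receptor of pericytes, stood at 67.6, 69 and 85.8 CPM in the IS rats and 45.1, 53.2 and 56.6 CPM in the IS-HA rats, with -0.52 (SE 0.17, adjusted p = 0.54). Acta2, smooth muscle actin, stood at 23.9, 19 and 23.7 CPM in the IS rats and 13.2, 13.7 and 14.2 CPM in the IS-HA rats, with -0.69 (SE 0.22, adjusted p = 0.54), and Myh11, smooth muscle myosin, at 28.8, 36 and 25.9 CPM in the IS rats and 20.2, 20.2 and 22.8 CPM in the IS-HA rats, with -0.52 (SE 0.20, adjusted p = 0.543). Endothelial markers as a group were at -0.02, with 2 of 13 lower in every aspirated rat. Tie1, an endothelial receptor kinase, stood at 91.6, 79.2 and 142 CPM in the IS rats and 65.5, 65.3 and 64.3 CPM in the IS-HA rats, with -0.68 (SE 0.24, adjusted p = 0.54). Cldn5, the claudin of the blood-brain barrier, stood at 174, 205 and 158 CPM in the IS rats and 134, 306 and 156 CPM in the IS-HA rats and overlapped.

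In the immunoproteasome, class II and interferon-induced groups the aspirated rats disagreed. Psmb8, the immunoproteasome subunit LMP7, stood at 71.7, 81.6 and 108 CPM in the IS rats and 42.2, 119 and 41.5 CPM in the IS-HA rats, with IS-HA replicate 2 above every IS rat. Of 9 genes of immunoproteasome and class I processing 8 had a negative log2 fold change and 0 had every aspirated rat on one side. The per-rat medians were -0.16, -0.13 and 0.33 in IS and -0.56, 0.06 and -0.61 in IS-HA. Cd74, the class II invariant chain, stood at 214, 255 and 736 CPM in the IS rats and 101, 421 and 154 CPM in the IS-HA rats, and class II genes gave -1.34, 0.26 and -0.70 in IS-HA against -0.46, -0.31 and 0.83 in IS. Interferon-induced genes gave -0.82, 0.59 and -0.54 against 0.12, -0.14 and 0.09, and Irf7, an interferon regulatory factor, stood at 18.9, 15 and 16 CPM in the IS rats and 6.52, 31.1 and 7.45 CPM in the IS-HA rats. In each of these lists replicates 1 and 3 lay below all IS rats and replicate 2 did not.

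The 6 genes that stood highest in IS-HA replicate 2 against replicates 1 and 3 were RT1-CE16, Oxt, Rps12l3, RT1-Ba, Serpina3n and Cxcl10. RT1-CE16, a class I gene, stood at 4.11, 4.31 and 5.92 CPM in the IS rats and 5.05, 149.9 and 2.14 CPM in the IS-HA rats. RT1-Ba, a class II gene, stood at 6.73, 8.81 and 18.4 CPM in the IS rats and 3.77, 53.8 and 4.94 CPM in the IS-HA rats, and Rps12l3, a copy of a ribosomal protein gene, at 4.72, 6.56 and 9.36 CPM in the IS rats and 1.28, 23.5 and 1.86 CPM in the IS-HA rats. These genes share sequence with close relatives, so that their reads could have been divided among copies and the levels are uncertain. Serpina3n, an acute phase inhibitor of reactive astrocytes, stood at 176, 13.6 and 50.4 CPM in the IS rats and 8.31, 128 and 15.9 CPM in the IS-HA rats and was as uneven among the IS rats.

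On the low side of IS-HA replicate 2 were Tmtc2, Plekhg1, Ptpn4, Rasgrp1, Ptpn3 and Creg2. Rasgrp1, a Ras activator abundant in striatal neurons, stood at 55.4, 47.6 and 17.1 CPM in the IS rats and 155, 8.05 and 88.5 CPM in the IS-HA rats. Ptpn4, a phosphatase, stood at 7.17, 3.86 and 2.62 CPM in the IS rats and 25, 1.42 and 21 CPM in the IS-HA rats, Plekhg1, a guanine nucleotide exchange factor, at 6.56, 3.6 and 2.75 CPM in the IS rats and 23.9, 1.26 and 19.6 CPM in the IS-HA rats and Tmtc2, a mannosyltransferase of the endoplasmic reticulum, at 4.2, 2.79 and 2.75 CPM in the IS rats and 12.5, 0.473 and 8.57 CPM in the IS-HA rats. In these 4 genes replicates 1 and 3 were above all IS rats and replicate 2 below all of them. In Ptpn3, a further phosphatase, at 8.57, 3.24 and 1.65 CPM in the IS rats and 26.1, 1.89 and 27.6 CPM in the IS-HA rats, replicate 2 lay within the IS range.

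Gene length moved with this. When tested genes were divided into 5 equal bins by length, IS-HA replicate 2 minus the mean of replicates 1 and 3 had a median of 0.69 on the log2 scale in the bin of the shortest genes, 0.27, -0.01 and -0.27 in the next ones, and -0.51 in the longest. Against the IS mean, replicates 1 and 3 ran the other way, from -0.29 and -0.28 in the bin of the shortest genes to 0.30 and 0.31 in that of the longest, and replicate 2 from 0.38 to -0.21. The IS rats stayed between -0.10 and 0.07 in every bin. Ribosomal and respiratory chain proteins are encoded by short genes. The 70 ribosomal protein genes gave -0.71, 0.74 and -0.62 in IS-HA against -0.26, -0.01 and 0.27 in IS, and the 74 respiratory chain genes -0.26, 0.69 and -0.26 against -0.11, 0.06 and 0.04. The part of gene length in these results was not tested beyond a correction for it, under which 0 genes were called lower and 1 higher.

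**Figure D3:**
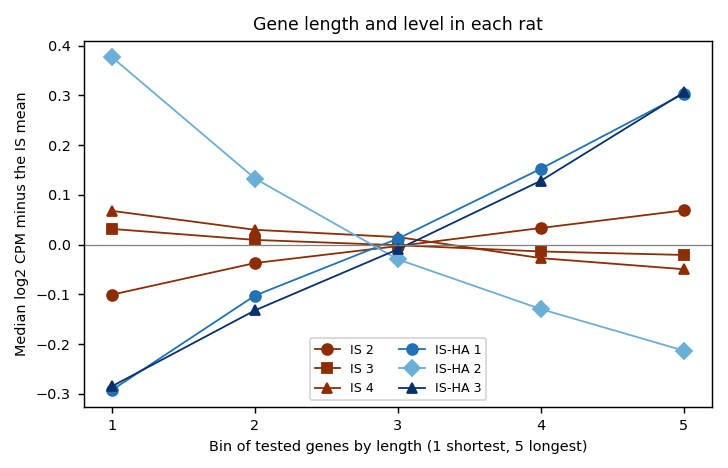
Median over genes of log2 CPM minus the IS mean in each rat, for 5 equal bins of the tested genes from the shortest (1) to the longest (5). IS-HA replicates 1 and 3 run from -0.29 and -0.28 to 0.30 and 0.31, replicate 2 goes from 0.38 to -0.21, and the IS rats stay between -0.10 and 0.07.

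Neuronal genes were higher in IS-HA on average, with the IS rats widely spread. All 24 tested voltage-gated channel genes, all 25 glutamate and GABA receptor genes and all 19 genes of synaptic vesicles had a positive log2 fold change, with medians of 0.65, 0.87 and 0.58. Every aspirated rat was above every IS rat in 2 of the 24, 4 of the 25 and 2 of the 19. The per-rat medians of the receptor list were 0.50, 0.24 and -0.72 in IS and 1.41, 0.11 and 0.82 in IS-HA. IS replicate 4 was the low rat of its group, IS replicate 2 the high one, and IS-HA replicate 2 lay between IS replicates 3 and 4. The list of general neuron markers had a median of 0.59, with 11 of 12 positive and 1 of 12 without overlap. Its per-rat medians were 0.62, 0.26 and -0.75 in IS and 0.68, 0.12 and 0.66 in IS-HA, which overlapped. Rbfox3, which encodes NeuN, stood at 87.3, 76 and 40.1 CPM in the IS rats and 72.4, 51 and 67.2 CPM in the IS-HA rats, with -0.09 (SE 0.28, adjusted p = 0.935).

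Among the receptors, Grin2a, an NMDA receptor subunit of mature synapses, stood at 2.01, 0.899 and 0.138 CPM in the IS rats and 9.97, 2.52 and 5.22 CPM in the IS-HA rats, with 2.48 (SE 0.77, adjusted p = 0.54). Gabrb1, a GABA receptor subunit, stood at 3.94, 4.49 and 3.44 CPM in the IS rats and 8.37, 10.6 and 6.89 CPM in the IS-HA rats, with 1.11 (SE 0.30, adjusted p = 0.499), and had its highest level in IS-HA replicate 2. Kcnc2, a potassium channel of fast-spiking neurons, stood at 17.9, 6.65 and 1.79 CPM in the IS rats and 88.4, 21.3 and 71.2 CPM in the IS-HA rats, with 2.75 (SE 0.75, adjusted p = 0.499). Cacna1e, an R-type calcium channel, stood at 4.72, 3.15 and 2.34 CPM in the IS rats and 12.9, 6.63 and 13.9 CPM in the IS-HA rats, with 1.70 (SE 0.44, adjusted p = 0.499). Snap25, the synaptic SNARE protein, stood at 681, 504 and 181 CPM in the IS rats and 816, 408 and 668 CPM in the IS-HA rats and overlapped. Gria1, a glutamate receptor subunit, also overlapped, at 32.4, 22.9 and 13.8 CPM in the IS rats and 65.4, 14.2 and 50.1 CPM in the IS-HA rats. So did Scn1a, a sodium channel, at 38.2, 36 and 20.7 CPM in the IS rats and 66.8, 23.7 and 58.1 CPM in the IS-HA rats.

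The list of striatal interneuron markers separated the groups by its per-rat medians, where the list of medium spiny neuron markers did not. All 10 tested interneuron genes had a positive log2 fold change, 4 of 10 had no overlap, and the median was 0.96, with per-rat medians of 0.20, 0.26 and -0.56 in IS and 1.18, 0.67 and 1.26 in IS-HA. Gad2, a GABA-synthesizing enzyme, stood at 19.1, 20.1 and 9.22 CPM in the IS rats and 56.5, 21.6 and 40.8 CPM in the IS-HA rats, with 1.29 (SE 0.38, adjusted p = 0.507). Gad2 is not confined to interneurons, since medium spiny neurons also make GABA. Lhx6, a transcription factor of interneurons, stood at 2.8, 1.71 and 1.24 CPM in the IS rats and 4.28, 2.84 and 5.12 CPM in the IS-HA rats, with 1.08 (SE 0.34, adjusted p = 0.54), and Sst, somatostatin, at 39.9, 42.9 and 27.4 CPM in the IS rats and 56.8, 81.7 and 44 CPM in the IS-HA rats. Chat, which makes acetylcholine, stood at 1.84, 5.48 and 1.51 CPM in the IS rats and 5.88, 4.42 and 5.59 CPM in the IS-HA rats and overlapped through IS replicate 3. In the Normal rats Gad2 stood at 115 and 180 CPM and Lhx6 at 17 and 14.8 CPM, above every aspirated rat. Calb2, also a member without overlap, went the other way, at 7.03 and 5.81 CPM in the Normal rats and 9.39, 35 and 45.4 CPM in the IS-HA rats. Which cells gave this RNA was not tested. The 17 medium spiny neuron genes had a median of 0.07, 0 of 17 without overlap, and per-rat medians of -0.24, 0.74 and -0.41 in IS and 0.46, -0.07 and -0.40 in IS-HA. The difference between the lists was not tested.

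Genes of neighbouring brain regions differed between rats within and between the groups. Slc17a7, the vesicular glutamate transporter of cortex, stood at 424, 138 and 14.3 CPM in the IS rats and 209, 143 and 297 CPM in the IS-HA rats, a wide span within IS. Slc17a6, the glutamate transporter of thalamus and hypothalamus, stood at 1.4, 2.7 and 0.138 CPM in the IS rats and 30.6, 17.2 and 56 CPM in the IS-HA rats, with 4.53 (SE 0.98, adjusted p = 0.383). A list of 25 thalamic and hypothalamic genes was therefore added after these values were seen. Of its 21 tested genes, which include Slc17a6, 19 had a positive log2 fold change, 8 had every aspirated rat above every IS rat, and the median was 1.03. The gene that prompted the list is thus counted in these numbers, and they are a description only. The summed level was 239 to 294 CPM over the IS rats and 482 to 667 CPM over the IS-HA rats. All 3 aspirated rats agreed, with per-rat medians of 0.77, 0.99 and 1.36 against -0.13, 0.07 and 0.06 in IS. The IC rats were at -0.19, 0.46 and -0.15 and the Normal rats at 0.90 and 1.10. Normal striatum thus lay within the range of the aspirated rats on this list, and the IS rats lay below it. Slc17a6 alone stood at 3.17 and 17.8 CPM in the Normal rats.

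Tcf7l2, a transcription factor of thalamic neurons, stood at 17.3, 18.3 and 19.7 CPM in the IS rats and 39.5, 22.9 and 66 CPM in the IS-HA rats, with 1.22 (SE 0.35, adjusted p = 0.499). Baiap3, which acts in dense-core vesicle release, stood at 6.12, 6.74 and 13.8 CPM in the IS rats and 16.6, 18.5 and 32.1 CPM in the IS-HA rats, with 1.35 (SE 0.35, adjusted p = 0.499). Gpr101, an orphan receptor of the hypothalamus, stood at 0.525, 0.719 and 0.275 CPM in the IS rats and 4.09, 1.1 and 3.63 CPM in the IS-HA rats, with 2.52 (SE 0.62, adjusted p = 0.484). In IS replicate 4 the levels of Gpr101, Slc17a6 and Grin2a lay under the floor of 3 counts, 0.403 CPM in that rat, so the sizes of their fitted folds depend on the prior count. Neuropeptide genes differed by rat. Oxt, oxytocin, stood at 0, 0.0899 and 0 CPM in the IS rats and 0.639, 31.7 and 3.91 CPM in the IS-HA rats, and Avp, vasopressin, at 0.175, 0.449 and 0.413 CPM in the IS rats and 0.0639, 16.4 and 1.96 CPM in the IS-HA rats, both highest in IS-HA replicate 2. Pmch, melanin-concentrating hormone, stood at 0.175, 0.18 and 0.275 CPM in the IS rats and 0.0639, 5.21 and 6.43 CPM in the IS-HA rats. The IS levels of Oxt, Avp and Pmch were at or close to the floor of 3 counts, and no fold is given. Hcrt, Gal, Pomc and the hypothalamic transcription factor Nkx2-1 overlapped. The part of neighbouring tissue in the neuronal results was not tested. Calb2, Agt and Hap1 are expressed in hypothalamus as well as in striatum or its astrocytes. Hap1, a huntingtin-associated protein, stood at 125, 70.1 and 97.9 CPM in the IS rats and 127, 163 and 184 CPM in the IS-HA rats.

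**Figure D4:**
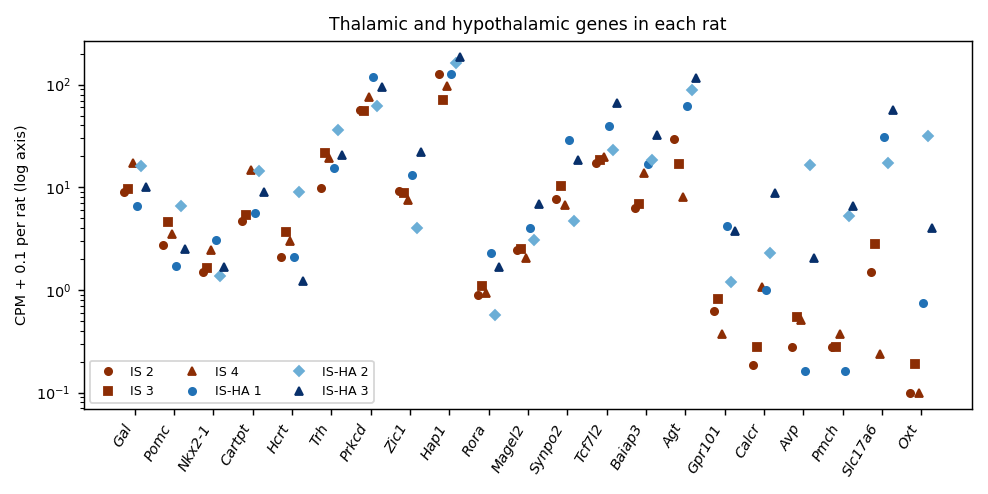
CPM plus 0.1 on a log axis in each rat for the 21 tested thalamic and hypothalamic genes of a list chosen after values had been seen, ordered by log2 fold change. For Slc17a6 the aspirated rats sit between 17.2 and 56.0 CPM and the IS rats between 0.14 and 2.70, whereas Gal, Pomc and Nkx2-1 overlap.

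Choroid plexus and ependyma markers were near the floor. Ttr, transthyretin, stood at 0.175, 0.449 and 0.688 CPM in the IS rats and 4.67, 1.26 and 1.68 CPM in the IS-HA rats and Clic6, a chloride channel protein, at 0.787, 0.18 and 0.413 CPM in the IS rats and 2.62, 1.58 and 1.77 CPM in the IS-HA rats, both with every aspirated rat higher. Folr1, Kl, Foxj1 and Tmem212 overlapped. The list was thus split, with 2 of 6 tested members without overlap, and its per-rat medians overlapped between the groups.

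Imprinted genes, which are expressed from 1 parental copy and many of which are abundant in hypothalamus, were also added as a list after Nap1l5 had been seen. Of 20 tested genes 18 had a positive log2 fold change, 6 had no overlap and the median was 0.75. The list was chosen after a value had been seen, so these numbers are a description only. On the per-rat scale the aspirated rats were at 0.59, 0.38 and 1.19, the IC rats at 0.56, 0.32 and 0.38 and the Normal rats at 1.24 and 1.35. Usp29 stood at 20, 21.8 and 19.7 CPM in the IS rats and 52.5, 39.6 and 64.1 CPM in the IS-HA rats, with 1.34 (SE 0.25, adjusted p = 0.292), and Peg3, its neighbour, at 203, 162 and 140.2 CPM in the IS rats and 400.1, 204 and 468 CPM in the IS-HA rats, with 1.09 (SE 0.29, adjusted p = 0.499). Zdbf2 stood at 2.1, 0.539 and 0.826 CPM in the IS rats and 5.18, 2.21 and 9.03 CPM in the IS-HA rats, with 2.23 (SE 0.57, adjusted p = 0.499), and Magel2 at 2.36, 2.43 and 1.93 CPM in the IS rats and 3.9, 3.0 and 6.8 CPM in the IS-HA rats, with 1.03 (SE 0.33, adjusted p = 0.54). Mest, Snrpn, H19 and Igf2 overlapped, so the list did not move as one. Usp29 and Peg3 lie close together and Nap1l5 lies within another gene, and whether the counting used strand is not given in the sources used here.

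Mature oligodendrocyte genes had a positive log2 fold change in 13 of 13 members, 3 of 13 without overlap, and a median of 0.48. The aspirated rats, at 0.73, 0.41 and 0.47, all lay above the IS rats, at 0.21, 0.23 and -0.35. Ugt8, which makes myelin galactolipids, stood at 186, 149 and 104 CPM in the IS rats and 314, 219 and 197 CPM in the IS-HA rats, with 0.73 (SE 0.26, adjusted p = 0.54), and Cnp, a myelin enzyme, at 911, 996 and 762 CPM in the IS rats and 1133, 1351 and 1077 CPM in the IS-HA rats, with 0.42 (SE 0.19, adjusted p = 0.56). Mbp, myelin basic protein, stood at 4946, 7809 and 5071 CPM in the IS rats and 7293, 7705 and 6339 CPM in the IS-HA rats and overlapped. Cholesterol synthesis, which myelin needs, gave 15 of 16 positive and 3 of 16 without overlap, with a small median of 0.15. Fdft1, squalene synthase, stood at 45.6, 51.8 and 41.7 CPM in the IS rats and 55.2, 65.6 and 63.4 CPM in the IS-HA rats, with 0.40 (SE 0.16, adjusted p = 0.543). Among precursor genes Sox10 stood at 124, 133 and 127 CPM in the IS rats and 141, 144 and 149 CPM in the IS-HA rats, with 0.17 (SE 0.15, adjusted p = 0.72).

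Homeostatic microglia genes had 3 of 9 members above IS in every aspirated rat and a median of 0.34, while 4 of 9 had a negative log2 fold change. The median was 0.10 without IS-HA replicate 1. Sall1, the transcription factor of resident microglia, stood at 65.3, 65.4 and 46.7 CPM in the IS rats and 107, 79.1 and 101 CPM in the IS-HA rats, with 0.69 (SE 0.18, adjusted p = 0.499). P2ry12, a purine receptor, stood at 59.3, 57.3 and 44.6 CPM in the IS rats and 102, 65.8 and 89.5 CPM in the IS-HA rats, with 0.67 (SE 0.25, adjusted p = 0.54), and Tmem119 at 22.6, 27.9 and 22 CPM in the IS rats and 30.4, 29 and 37.7 CPM in the IS-HA rats, with 0.42 (SE 0.25, adjusted p = 0.601). Aif1, which resident and infiltrating macrophages share, stood at 177, 193 and 315 CPM in the IS rats and 142, 355 and 132 CPM in the IS-HA rats and overlapped through replicate 2, while Ptprc, the common leukocyte antigen CD45, stood at 61.8, 56.4 and 108 CPM in the IS rats and 53.8, 43.2 and 47.7 CPM in the IS-HA rats, with every aspirated rat lower.

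Reactive astrocyte genes had a median of -0.44, with 10 of 12 lower and 4 of 12 without overlap. Cd44, the hyaluronan receptor, stood at 149, 156 and 257 CPM in the IS rats and 111, 95.6 and 126 CPM in the IS-HA rats, with -0.75 (SE 0.32, adjusted p = 0.55), and Stat3, the transcription factor of astrocyte reactivity, at 216, 194 and 218 CPM in the IS rats and 167, 143 and 194 CPM in the IS-HA rats, with -0.32 (SE 0.16, adjusted p = 0.569). Gfap itself, the astrocyte filament, stood at 5284, 6729 and 4343 CPM in the IS rats and 5480.4, 5952 and 4465 CPM in the IS-HA rats, with no separation. Astrocyte transport genes had a median of 0.44 and 0 of 14 without overlap. Aqp4, the water channel, stood at 782, 511 and 301 CPM in the IS rats and 1349, 401 and 821 CPM in the IS-HA rats.

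Smaller groups were mixed. Of 16 p53 target and cell death genes 15 were lower, 5 had every aspirated rat below IS and 1 had every aspirated rat above. Gadd45b, a stress-induced growth arrest gene, stood at 25.5, 28.4 and 38.8 CPM in the IS rats and 16, 21.9 and 17.9 CPM in the IS-HA rats, with -0.74 (SE 0.21, adjusted p = 0.499). Hspa1a, the inducible heat shock protein 70, stood at 18.9, 26.2 and 33.5 CPM in the IS rats and 7.99, 16.9 and 12 CPM in the IS-HA rats, with -1.10 (SE 0.30, adjusted p = 0.499), while the 10 heat shock genes together had a median of 0.01. Of 17 unfolded protein response genes 12 were lower and the median was -0.13. Hspa5, the chaperone GRP78, stood at 508, 393 and 501 CPM in the IS rats and 421, 357 and 421 CPM in the IS-HA rats. Xbp1, a transcription factor of that response, stood at 144, 123 and 209 CPM in the IS rats and 97.1, 117 and 119 CPM in the IS-HA rats, with -0.51 (SE 0.20, adjusted p = 0.544). Chac1, a glutathione-degrading enzyme induced in that response, had every aspirated rat higher, at 7.52, 8.99 and 3.03 CPM in the IS rats and 9.2, 9.47 and 12.8 CPM in the IS-HA rats, with 0.67 (SE 0.34, adjusted p = 0.563). All 20 cell cycle genes had a negative log2 fold change, 2 without overlap, with Mki67 at 86.9, 74.4 and 86.3 CPM in the IS rats and 84.2, 68.5 and 80.1 CPM in the IS-HA rats. Lysosomal genes had a median of -0.52, and -0.91 without IS-HA replicate 2, with per-rat medians of -0.26, -0.26 and 0.57 in IS and -0.87, 0.14 and -0.74 in IS-HA, so IS-HA replicate 2 lay within the IS range. The median of hypoxia and glycolysis genes was -0.11 and -0.26 without IS-HA replicate 2, that of complement -0.03 and -0.17, that of immediate early genes -0.09 and -0.02, that of matrix proteases and coagulation -0.36 and -0.53, and that of the unfolded protein response -0.13 and -0.27. Soat1, which esterifies cholesterol in foam cells, was lower in every aspirated rat, at 171, 152 and 274 CPM in the IS rats and 114, 145 and 119.8 CPM in the IS-HA rats, and Apoe, the main lipid carrier, was not, at 8969.6, 9586 and 25944 CPM in the IS rats and 5140.5, 19677 and 5409 CPM in the IS-HA rats.

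Without IS-HA replicate 2, 155 genes were called lower (0.975%) and 540 higher (3.4%) of 15897 tested. These calls describe 2 aspirated rats. Of the 155 lower genes replicate 2 was below the IS mean for 64 and all 3 aspirated rats were below all IS rats for 38. Of the 539 higher genes tested in both fits replicate 2 was above the IS mean for 163 and all 3 were above all IS rats for 94. Over the lower genes replicate 2 lay at a median of 0.16 from the IS mean on the log2 scale, where replicates 1 and 3 lay at -1.16 and -1.01, and over the higher genes at -0.35 against 1.32 and 1.32.

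Some of these calls were genes on which all 3 rats agreed. Nos2 had -4.08 (adjusted p = 0.0342) in that fit, Cxcl2 -4.44 (adjusted p = 0.0423), Ccl3 -2.38 (adjusted p = 0.0362), Il1r2 -2.81 (adjusted p = 0.0376) and Osgin1 -1.64 (adjusted p = 0.0455), all log2 fold changes. On the higher side were Hipk2 with 1.71 (adjusted p = 0.0342), Ache with 1.42 (adjusted p = 0.0342), Gad2 with 1.58 (adjusted p = 0.0386), Sall1 with 0.81 (adjusted p = 0.0381) and Slc17a6 with 4.82 (adjusted p = 0.0376). Other calls held for 2 rats and not for the third. Il1b had -2.16 (adjusted p = 0.041), Mt1, a metal-binding metallothionein, -1.23 (adjusted p = 0.0362), S100a6 -1.65 (adjusted p = 0.0342), Ifit3, an interferon-induced gene, -2.45 (adjusted p = 0.0342) and Mmp9, a matrix protease of neutrophils, -1.81 (adjusted p = 0.0409). On the higher side Map2, a dendritic microtubule protein, had 2.05 (adjusted p = 0.043), Slc1a2, the astrocyte glutamate transporter, 1.9 (adjusted p = 0.045) and Gabrb2 3.05 (adjusted p = 0.0363).

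**Figure D5:**
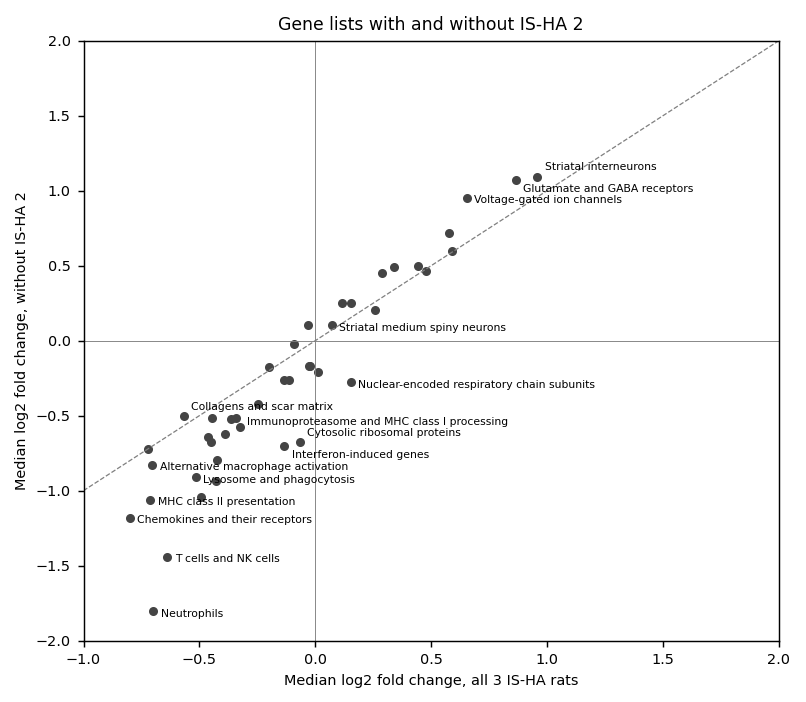
Median log2 fold change of each gene list with at least 6 tested members, with all 3 IS-HA rats (horizontal axis) and without IS-HA replicate 2 (vertical axis), with the line of equality. Matrix genes lie near the line at -0.57 and -0.50, neutrophil genes move from -0.70 to -1.81, and respiratory chain genes from 0.15 to -0.28.

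The median of 3 lists changed sides without that rat. Respiratory chain genes went from 0.15 to -0.28, heat shock genes from 0.01 to -0.21 and forkhead genes from -0.03 to 0.10. Ribosomal protein genes went from -0.07 to -0.67, interferon-induced genes from -0.13 to -0.70 and T and NK cell genes from -0.64 to -1.44. Nrf2 targets went from -0.39 to -0.62, NF-kB and interleukin 1 signaling from -0.45 to -0.68, endothelial genes from -0.02 to -0.17 and cholesterol synthesis from 0.15 to 0.25. Heme clearance genes were at -0.72 and -0.72, and interneuron genes at 0.96 and 1.09.

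IS replicate 4 also set the size of many medians. Without it heme clearance genes went from -0.72 to -0.10, lysosomal genes from -0.52 to -0.16, Nrf2 targets from -0.39 to -0.17, alternative activation genes from -0.70 to -0.38 and chemokines and their receptors from -0.80 to -0.49. On the neuronal side receptors went from 0.87 to 0.54, channels from 0.65 to 0.43 and synaptic vesicle genes from 0.58 to 0.31. The change was smaller for matrix genes, at -0.57 and -0.47, pericyte and smooth muscle markers, at -0.47 and -0.42, interneuron genes, at 0.96 and 0.71, and thalamic and hypothalamic genes, at 1.03 and 0.94.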

How the data were processed

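RNA of the striatum, ipsilateral to the injection in the IC, IS and IS-HA rats, was sequenced from 11 rats as poly(A) libraries with 150-base paired reads. The authors deposited whole-number counts per gene, not normalized, and TPM for 30560 Ensembl genes, of which 4447 carry no symbol. The submitters' processing notes name fastp 0.20.0, HISAT2 2.1.0, SAMtools 1.9, featureCounts, DESeq2 and the build mRatBN7.2.

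The counts, at 6701301 to 18817645 per rat, were filtered with filterByExpr, scaled by TMM and fitted with edgeR 4.0.16 (R 4.3.3) in one quasi-likelihood model over the 4 groups, with no covariate. The contrast was IS-HA minus IS, with Benjamini-Hochberg adjustment over 15742 genes. The SE was approximated from the log2 fold change and the F statistic. The floor of detection was taken as 3 counts and covers counting error only; the reads carried no molecular identifiers. Alternatives used DESeq2 1.42.0, limma 3.58.1 and other filters, scalings and rats. The methods were tested on simulated data. Plots were drawn with matplotlib.

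Genes named by rule were the called genes, the 8 lower and 8 higher with the smallest p, an absolute log2 fold change of at least 1, a mean of at least 5 CPM and no overlap, the first and up to 3 further members of each of 45 lists, and the 6 genes on each side farthest from the group in IS-HA replicate 2. Further list members and the genes of the 2 added lists were named after their values were seen. Some genes that these rules name are not reported here, although lists count them. The members and lists were chosen with earlier results of these data known. Of 817 listed symbols 794 matched the file and 737 list members were tested.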

Additional observations from a re-analysis of the deposited data

How the results depend on the processing

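Depth was 6701301 to 15083520 counts per rat, and levels at or under 3 counts in a rat were at the floor. The number of genes called lower in IS-HA, 0 in the report, was 21 with DESeq2's Wald test and 163 with voom and quality weights, in which IS-HA replicate 2 had a weight of 0.155, and ranged from 0 to 155 when one rat was left out. The number called higher, 1 in the report, was 47 with DESeq2's Wald test, 266 with voom and quality weights, and 0 with DESeq2's size factors, library size alone, at least 10 counts in every IS and IS-HA rat, only the 2 groups, or limma on log2(TPM + 1). It ranged from 0 to 540 with one rat left out, and the highest counts, 155 and 540, were those without IS-HA replicate 2; leaving out any other rat gave 0 lower and at most 3 higher. Foxn3 kept a log2 fold change of 1.65 to 2.04 in all 22 settings and an adjusted p under 0.05 in 7. Genes with every IS-HA rat below every IS rat numbered 854, and 1122 to 3934 with one rat left out; those above numbered 781, and 1045 to 4105. Fewer rats give more genes without overlap by construction. Under the other settings both counts stayed within 1.5 times. Of 47 list medians 34 kept their sign in all 22 settings, but not their size: without IS replicate 4 heme clearance was at -0.10 and lysosomal genes at -0.16, and without IS-HA replicate 1 receptors were at 0.44. A fold cutoff of 1 or none left the counts at 0 and 1.

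The replicate numbers 2 and 3 occur in both groups but name different animals, and the main fit did not pair the rats. The deviations of same-numbered rats correlated at -0.475 and -0.089, and those of the other pairs at -0.367 to 0.443. Whether a replicate number stands for a shared batch cannot be told from these values. A replicate block over those 4 rats called 3 genes lower and 3 higher, against 0 and 0 over the same 4 rats with no block. With the block the medians were -0.11 for heme clearance, 0.10 for receptors, 0.0060 for channels and -0.05 for lysosomal genes. With the pairs crossed, added after the data were seen, 10 were lower and 9 higher.

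Of 179 named genes, 31 changed sign with a rat left out, and 54 of 1932 other values had the opposite sign; the cause was not tested. With the replicate block the opposite sign was taken by Cd74 (0.13), Rpl10 (0.13), Apoe (0.16), Gria1 (-0.010), Snap25 (-0.17), Slc17a7 (-0.23), Pdgfra (-0.11), Aqp4 (-0.14), Aif1 (0.23), S100a8 (-0.19), Jchain (0.19), Tmtc2 (-0.36), Rasgrp1 (-0.87), Creg2 (-0.088), Gal (0.46), Hmox2 (-0.061), Il1a (0.71), Lox (-0.51), Mest (-0.013), Nkx2-1 (-0.041), Pomc (0.21), Prdx1 (0.090), Snrpn (-0.060), Tmem212 (0.41) and Tnf (0.085). In voom with quality weights the opposite sign was taken by Mki67 (0.024), Fos (0.28), Foxc1 (0.033), S100a8 (-1.70), Jchain (0.17), Cldn5 (-0.30), Hba-a3 (-0.026), RT1-CE16 (-0.28), Rps12l3 (-1.86), RT1-Ba (-0.93), Cxcl10 (-0.42), Cd86 (-0.20), Foxj1 (0.040), Hcrt (-0.88), Hmox2 (-0.10), Il1a (0.82) and Tmem212 (0.39). With the length correction the opposite sign was taken by Fos (0.10), S100a8 (-0.28) and Il1a (0.070). With DESeq2's size factors the opposite sign was taken by S100a8 (-0.0090). With library size alone the opposite sign was taken by S100a8 (-0.068) and Il1a (0.014). In limma on log2(TPM + 1) the opposite sign was taken by S100a8 (-0.73), Rps12l3 (-0.70), Il1a (0.080) and Tmem212 (0.028). Without the filter the opposite sign was taken by S100a8 (-0.0061). In DESeq2's Wald test the opposite sign was taken by Cd86 (-0.0034). With one rat left out, log2 fold changes crossed 0 for Aif1 (-0.74 to 0.18), Apoe (-1.49 to 0.12), Cd3e (-1.44 to 0.26), Cd86 (-0.30 to 0.18), Cldn5 (-0.30 to 0.37), Cxcl10 (-0.62 to 2.00), Fos (-0.30 to 0.23), Foxj1 (-0.57 to 0.11), Gal (-0.53 to 0.22), Gfap (-0.18 to 0.10), Hba-a3 (-0.077 to 0.67), Hcrt (-0.84 to 0.85), Hmox2 (-0.043 to 0.18), Il1a (-0.43 to 0.76), Irf7 (-1.26 to 0.19), Jchain (-0.79 to 0.16), Kl (-0.51 to 0.88), Lox (-0.64 to 0.94), Mest (-0.064 to 0.18), Nkx2-1 (-0.26 to 0.45), Pomc (-0.82 to 0.30), Ppp1r1b (-0.49 to 0.22), RT1-Ba (-1.37 to 1.39), RT1-CE16 (-0.37 to 3.99), Rbfox3 (-0.36 to 0.13), Rpl10 (-0.56 to 0.043), Rps12l3 (-2.13 to 0.86), S100a8 (-1.83 to 0.49), Serpina3n (-2.74 to 0.65), Slc17a7 (-0.38 to 1.5) and Tmem212 (-0.52 to 0.54).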
